A study of Mus musculus with 12 samples.

Results

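The genes that build, load and switch on the MHC class II molecule were followed in RNA-seq of bone marrow LSKs (Lin- Sca-1+ c-Kit+ cells, the fraction that holds the hematopoietic stem cells and multipotent progenitors). The 7 genes were taken by name from the deposited table of 53465 genes, and all 7 were found and passed the filter on low counts in every comparison: H2-Aa, H2-Ab1, H2-Eb1, H2-DMa, H2-DMb1, Cd74 and Ciita. There were 4 groups of 3 libraries: untreated Tespa1+/+ mice, untreated Tespa1-/- mice, and both genotypes at day 9 after 150 mg/kg of 5-fluorouracil (5-FU), a drug that kills dividing cells and forces the surviving stem cells to rebuild the marrow. Tespa1+/+ mice were wild-type littermates. Tespa1-/- mice lacked Tespa1, a thymocyte signaling protein, from the germline, so every cell of the animal and not the LSKs alone carried the deletion, on a C57BL/6 background. Per the study's methods the mice were male adults, and the cells were sorted after depletion of lineage-positive cells, with antibodies to CD3e, CD11b, Gr-1, B220 and Ter-119 in the lineage cocktail. The labels do not say whether the libraries of a group came from separate mice, so p-values measure the spread between these libraries, which may be technical.

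A class II molecule is a pair of an alpha and a beta chain that shows peptides from ingested protein to CD4+ T cells. The invariant chain Cd74 fills its groove until, in the endosome, the H2-DM pair exchanges the last Cd74 fragment for a peptide, a step that the H2-O pair restrains. Ciita, the class II transactivator, does not bind DNA itself but is recruited by RFX and NF-Y proteins that sit on the X and Y boxes just upstream of these genes. B cells, dendritic cells and macrophages are the usual sites of class II expression, and hematopoietic stem and progenitor cells express it at lower levels. Mice with the H2-b haplotype of C57BL/6 have an H2-Ea pseudogene and show I-A but not I-E on the cell surface, so that H2-Eb1 has no partner alpha chain there.

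The genes of the class II and H2-DM chains lie together on chromosome 17. At the positions of the deposited table (GRCm38, strands from GENCODE M21), H2-Aa (ENSMUSG00000036594) spans chr17:34282744-34287827 on the minus strand, H2-Ab1 chr17:34263209-34269418, H2-Eb1 chr17:34305877-34316199, H2-DMa chr17:34135182-34139101 and H2-DMb1 chr17:34153072-34160230, the last 4 on the plus strand. Ciita lies at chr16:10488178-10527564. The exons of Ciita overlap those of Dexi on the opposite strand and the exons of Cd74 hold Mir5107 on the same strand in GENCODE M21, and the sources used here do not say whether reads were counted by strand. Of the windows of 50 bases in H2-DMb1 transcripts, 22.7% also occur in other genes, most of all in its neighbor H2-DMb2, so the counts of H2-DMb1 are uncertain. For H2-Aa the share was 0.488%, and for the other 5 genes it was 0%.

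The promoters below are shown because X and Y boxes are what class II promoters are known to share, while of these genes H2-Aa and H2-Eb1 were higher in Tespa1-/- LSKs after 5-FU, H2-DMb1 passed no test and H2-Ob was lower. They are the 200 bases before the RefSeq start site, 5′ to 3′, from RefSeq on GRCm38.p6. The RefSeq table used here held promoters for 4 of the 7 genes (H2-Aa, H2-Eb1, H2-DMa and H2-DMb1) and for H2-Ob, the beta chain of H2-O. It also held those of H2-DMb2 and of H2-Oa, the alpha chain of H2-O, which are not shown. Capitals mark the Y box letters GATTGG, or CCAATC on the other strand, and the X box core AGNNACNGA in either orientation.
H2-Aa (chr17:34287824-34288023, minus strand): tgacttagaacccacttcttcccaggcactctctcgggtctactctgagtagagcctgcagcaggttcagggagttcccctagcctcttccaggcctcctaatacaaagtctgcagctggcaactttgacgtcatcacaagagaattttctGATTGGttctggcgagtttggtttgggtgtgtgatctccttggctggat
H2-Eb1 (chr17:34305667-34305866, plus strand): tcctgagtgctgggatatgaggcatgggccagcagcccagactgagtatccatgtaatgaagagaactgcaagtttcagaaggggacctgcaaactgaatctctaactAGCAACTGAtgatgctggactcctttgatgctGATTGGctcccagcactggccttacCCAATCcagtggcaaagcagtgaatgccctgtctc
H2-DMb1 (chr17:34152991-34153190, plus strand): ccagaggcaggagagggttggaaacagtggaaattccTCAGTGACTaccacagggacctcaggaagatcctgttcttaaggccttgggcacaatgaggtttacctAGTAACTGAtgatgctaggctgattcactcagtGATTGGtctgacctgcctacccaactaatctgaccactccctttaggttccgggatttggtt
H2-Ob (chr17:34238705-34238904, plus strand): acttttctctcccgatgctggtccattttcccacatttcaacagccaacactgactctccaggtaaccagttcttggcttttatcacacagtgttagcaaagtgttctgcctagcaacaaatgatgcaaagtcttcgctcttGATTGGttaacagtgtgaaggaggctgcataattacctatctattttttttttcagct
Each of these promoters held GATTGG on the coding strand close to the start site, with its first base 49 bases upstream in H2-Aa, 60 in H2-Eb1, 62 in H2-DMb1 and 58 in H2-Ob. H2-Eb1 and H2-DMb1 also carried the X core, at 92 and 95 bases upstream, with 23 and 24 bases between X and Y. H2-DMb1 held a further X core on the other strand, 163 bases upstream, and H2-Ob held one on the other strand after its start site, outside the stretch shown but inside the 300-base window counted next, so that 3 of these 4 windows held both motifs. Among 32544 promoter windows of 300 bases (250 before and 50 after the start), 16.1% held the Y letters, 17.8% the X core and 2.80% both, on either strand. Both entries for H2-DMa lie before the start of the gene in the deposited table and are not shown. Neither held the X core. The window of H2-DMb2 held the Y letters alone, and that of H2-Oa held both motifs. A match is a description of the letters only, and the lack of one says no more than that these letters were not in the window.

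The targeted gene was checked first. Tespa1 stood at 43.0 to 49.8 CPM (counts scaled to library size with TMM factors) in untreated Tespa1+/+ libraries and at 34.5 to 34.9 in untreated Tespa1-/- libraries. After 5-FU it stood at 47.2 to 57.5 and 17.3 to 20.8 CPM. Tespa1 was lower in every Tespa1-/- library but not at 0, and which part of the gene these reads covered was not tested. Library totals were 22118154 to 28275079 counts. Of the genes behind the sort, Kit, the gene of c-Kit, was at 329 to 474 CPM in all 12 libraries and Ly6a, the gene of Sca-1, at 10.6 to 45.2 CPM.

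Reads of all 7 class II genes were found in all 12 libraries. Per length (FPKM, fragments per kilobase, scaled to library size), H2-DMa led in untreated Tespa1+/+ LSKs with 21.2 ± 2.30 (SD, n = 3), followed by Cd74 with 16.5 ± 3.57 and H2-Ab1 with 15.3 ± 1.56, and the ranges of neighbors in this order overlapped. H2-DMb1 (8.57 ± 1.46) and H2-Eb1 (7.29 ± 0.493) came next and overlapped each other but not H2-Ab1. H2-Aa was at 5.09 ± 0.945 and Ciita, the regulator, was lowest at 0.556 ± 0.144, both apart from the gene above them. In Tespa1-/- LSKs after 5-FU the order was Cd74 (22.99 ± 5.98), H2-Ab1 (21.1 ± 1.86), H2-Eb1 (14.0 ± 1.13), H2-DMa (13.7 ± 1.79), H2-Aa (6.73 ± 0.297), H2-DMb1 (6.26 ± 1.45) and Ciita (0.867 ± 0.293). There, H2-DMa, the leading gene of untreated Tespa1+/+ LSKs, lay below H2-Ab1 with no overlap of the libraries. The summed level of the 7 genes was 142 to 169 CPM in untreated Tespa1+/+, 152 to 166 in untreated Tespa1-/-, 134 to 148 in treated Tespa1+/+ and 167 to 183 in treated Tespa1-/- libraries.

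**Figure D1:**
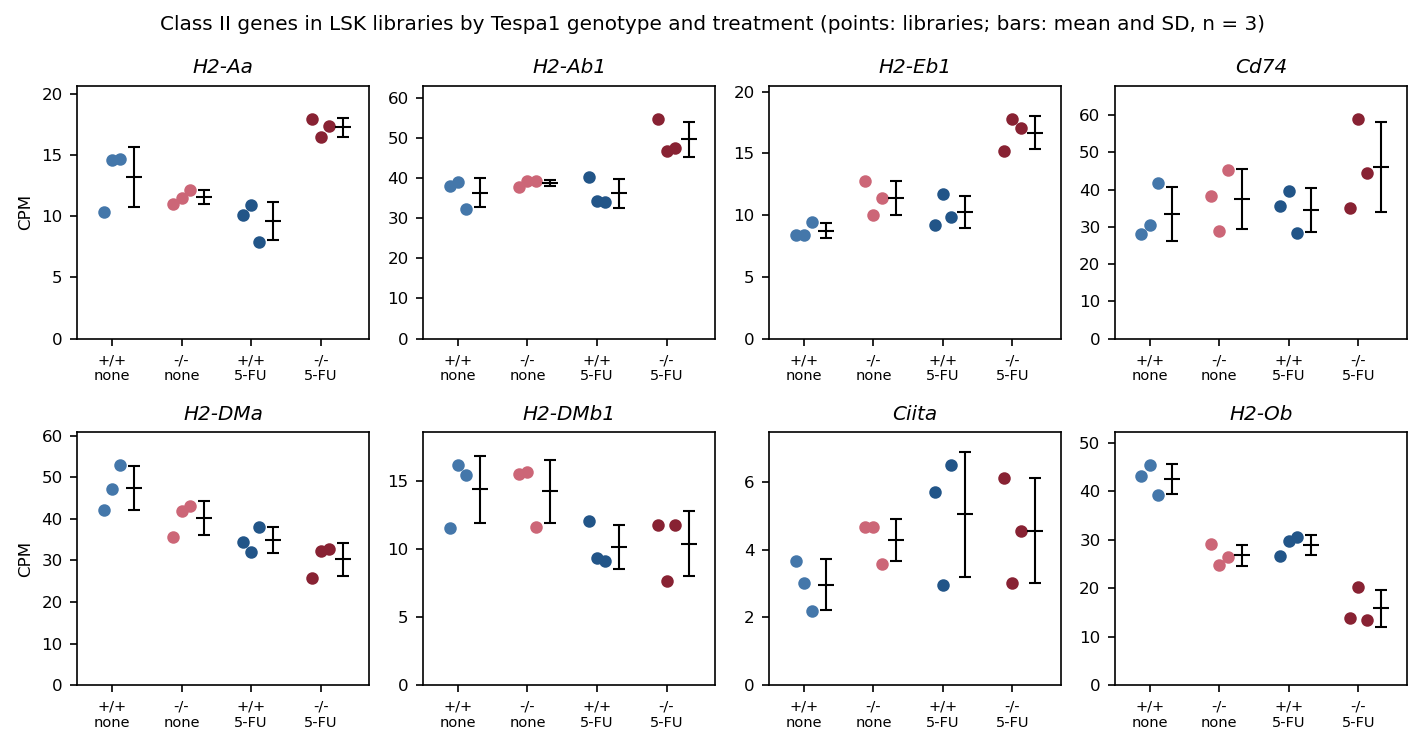
Level of the 7 class II genes and of H2-Ob in each library, in CPM on a linear axis from 0, by Tespa1 genotype (+/+ or -/-) and treatment (none or 5-FU); points are libraries, and the bar beside them is the mean with SD (n = 3). H2-Aa, H2-Ab1 and H2-Eb1 were highest in every treated Tespa1-/- library, whereas H2-Ob was lowest there, at 13.4 to 20.2 CPM.

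After 5-FU, the genes of the classical class II chains were higher in Tespa1-/- than in Tespa1+/+ LSKs. H2-Aa, H2-Ab1 and H2-Eb1 rose, whereas the peptide exchanger H2-DM, the invariant chain Cd74 and Ciita passed no test. H2-Aa, the I-A alpha chain, measured 10.1, 10.9 and 7.89 CPM in the 3 treated Tespa1+/+ libraries and 17.99, 16.5 and 17.4 CPM in the 3 treated Tespa1-/- libraries. Every Tespa1-/- library lay above every Tespa1+/+ library, with a log2 fold change of 0.84 ± 0.18 (SE) and an adjusted p of 0.0133 in edgeR's quasi-likelihood test. H2-Ab1, the I-A beta chain, measured 40.4, 34.3 and 34.1 CPM against 54.8, 46.8 and 47.5 CPM. These groups did not overlap either (log2 fold change 0.45 ± 0.11, adjusted p = 0.0296, edgeR). H2-Eb1, the I-E beta chain, went from 9.20, 11.7 and 9.87 CPM to 15.2, 17.8 and 17.02 CPM, again without overlap (0.69 ± 0.17, adjusted p = 0.0257, edgeR). In bulk RNA, more cells of a type and more RNA per cell cannot be told apart. The 3 chain genes together summed to 51.8 to 59.8 CPM in Tespa1+/+ and 81.1 to 88.0 CPM in Tespa1-/- LSKs. H2-Ea-ps, the pseudogene of the I-E alpha chain, had at most 4 counts in any of the 12 libraries.

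Thus 3 of the 7 genes were called higher where 7.34% of the 17239 genes tested were, and 0 were called lower where 5.78% were. At an unadjusted p below 0.05 the counts were also 3 and 0, and DESeq2 called 3 higher and 0 lower. The median log2 fold change of the 7 genes was 0.41, against -0.01 over all genes tested. With 2 libraries on a side the calls were less firm. H2-Aa lost its call without Tespa1-/- replicate 1 (adjusted p = 0.0517). H2-Ab1 lost it without Tespa1+/+ replicate 2 or 3 or any of the 3 Tespa1-/- libraries (adjusted p of 0.0567 to 0.106), and H2-Eb1 without Tespa1+/+ replicate 1 or 3 or Tespa1-/- replicate 2 or 3 (0.0784 to 0.0910). Over those fits the log2 fold change stayed at 0.71 to 0.94 for H2-Aa, 0.38 to 0.54 for H2-Ab1 and 0.62 to 0.80 for H2-Eb1.

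Cd74 and Ciita spread widely between libraries. Cd74, on the plus strand of chromosome 18, measured 35.7, 39.7 and 28.3 CPM in treated Tespa1+/+ and 35.1, 59.0 and 44.4 CPM in treated Tespa1-/- libraries, so that the groups overlapped (log2 fold change 0.41, 95% interval -0.02 to 0.85, adjusted p = 0.213, edgeR). Ciita measured 5.69, 2.97 and 6.48 CPM against 6.11, 3.02 and 4.56 CPM, with 77 to 167 counts a library. Its interval ran from -0.98 to 0.68, which does not exclude a difference in either direction. H2-DMa (log2 fold change -0.21, adjusted p = 0.368) and H2-DMb1 (0.03, adjusted p = 0.959) overlapped between genotypes too.

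**Figure D2:**
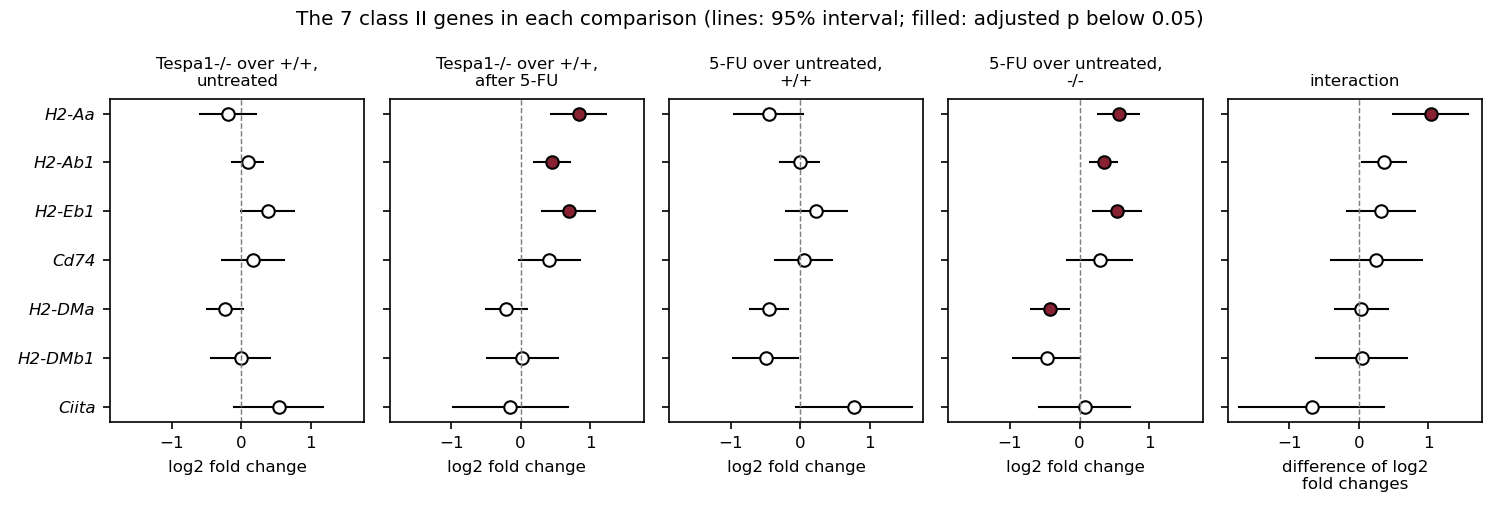
Log2 fold change of each class II gene in the 4 comparisons of groups and, at the right, the genotype by 5-FU interaction (the difference of log2 fold changes); lines are 95% intervals and filled points have an adjusted p below 0.05. Filled points stand at 0.84, 0.45 and 0.69 for H2-Aa, H2-Ab1 and H2-Eb1 in the comparison of genotypes after 5-FU, and only H2-Aa is filled in the interaction.

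Without 5-FU, the genotypes did not differ past the threshold in any of the 7 genes. H2-Aa measured 10.3, 14.7 and 14.7 CPM in untreated Tespa1+/+ and 11.02, 11.5 and 12.2 CPM in untreated Tespa1-/- libraries, and the ranges overlapped (log2 fold change -0.19, interval -0.59 to 0.22). H2-Ab1 ranged from 32.3 to 39.0 and from 37.8 to 39.3 CPM. H2-Eb1 alone did not overlap, at 8.38, 8.40 and 9.46 CPM against 12.8, 9.98 and 11.3 CPM, with a log2 fold change of 0.38 ± 0.17 and an adjusted p of 0.266 (edgeR). The count was 0 higher and 0 lower of 7, where 1.64% of the 17055 genes tested were called higher and 3.59% lower. DESeq2 also called 0, and 1 gene, H2-Eb1, had an unadjusted p below 0.05. Ciita was at 3.67, 3.02 and 2.17 CPM against 4.65, 4.66 and 3.58 CPM (0.54, interval -0.10 to 1.17).

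The response to 5-FU was then read within each genotype. These comparisons share libraries with those of the genotypes, so that their values are given side by side and are not separate evidence. In Tespa1+/+ LSKs no gene passed: 0 were called higher, where 3.77% of 17002 genes were, and 0 lower, where 4.18% were. At an unadjusted p below 0.05, 0 were higher and 2 were lower, H2-DMa and H2-DMb1. DESeq2 called 1 lower, H2-DMa. H2-DMa, the alpha chain of the peptide exchanger, measured 42.3, 47.2 and 52.9 CPM untreated and 34.5, 31.9 and 38.1 CPM after 5-FU, without overlap (-0.44 ± 0.12, adjusted p = 0.0581, edgeR; 0.0166 by DESeq2). The chain genes had a log2 fold change of -0.45 (H2-Aa, adjusted p = 0.276), -0.004 (H2-Ab1, 0.989) and 0.23 (H2-Eb1, 0.564). The median of the 7 was -0.004, against 0.01 over all genes.

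In Tespa1-/- LSKs 3 genes rose and 1 fell with 5-FU, where 10.7% of 17228 genes were called higher and 8.64% lower. H2-Aa went from 11.02 to 12.2 CPM before to 16.5 to 17.99 CPM after treatment (0.57 ± 0.13, adjusted p = 0.0155, edgeR). H2-Ab1 went from 37.8 to 39.3 CPM to 46.8 to 54.8 CPM (0.35 ± 0.09, adjusted p = 0.0231), and H2-Eb1 from 9.98 to 12.8 CPM to 15.2 to 17.8 CPM (0.54 ± 0.15, adjusted p = 0.0365). H2-DMa fell from 35.6, 41.9 and 43.2 CPM to 25.8, 32.4 and 32.7 CPM (-0.42 ± 0.12, adjusted p = 0.0408). None of these 4 pairs of groups overlapped. The share of all genes whose groups did not overlap was not counted, in this or any other comparison. In size, none of the 4 reached a fold change of 1.5, the size that the study asked of its genes. H2-DMa kept its call without untreated Tespa1-/- replicate 1 and lost it without any of the other 5 libraries (adjusted p of 0.0518 to 0.141). H2-Aa lost its call without untreated Tespa1-/- replicate 1 or 2 (0.0570 to 0.0628). H2-Ab1 lost it without any of the 3 untreated libraries or treated replicate 1 (0.0570 to 0.0851), and H2-Eb1 without untreated replicate 2 or 3 or treated replicate 2 or 3 (0.0839 to 0.129). With the replicate number as a block, which the check of pairing did not bear out, H2-Ab1 (0.0520) and H2-Eb1 (0.0822) were not called. Without the filter on low counts, H2-Eb1 (0.0596) and H2-DMa (0.0594) were not called.

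H2-DMb1, the beta chain that pairs with H2-DMa, had a log2 fold change with 5-FU of -0.50 (adjusted p = 0.204) in Tespa1+/+ and -0.47 (0.166) in Tespa1-/- LSKs, close in size to that of H2-DMa but with overlapping libraries. The ratio of H2-DMa to H2-DMb1 in FPKM was 2.19 to 2.75 in untreated Tespa1+/+, 1.73 to 2.80 in untreated Tespa1-/-, 2.15 to 3.14 in treated Tespa1+/+ and 1.65 to 3.19 in treated Tespa1-/- libraries, with overlap between all groups. The ratio of H2-Aa to H2-Ab1, the chains of I-A, was 0.250 to 0.418 in untreated Tespa1+/+, 0.268 to 0.285 in untreated Tespa1-/-, 0.213 to 0.292 in treated Tespa1+/+ and 0.302 to 0.336 in treated Tespa1-/- libraries. The range of treated Tespa1-/- LSKs lay within that of untreated Tespa1+/+ LSKs and apart from the other 2.

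Of the 7 genes, H2-Aa alone passed the test of a difference between genotypes in the response to 5-FU. The interaction, tested over all 12 libraries, was 1.03 ± 0.25 on the log2 scale (adjusted p = 0.0304, edgeR), and 1 gene was called higher, where 3.02% of 18696 genes were, and 0 lower, where 1.99% were. At an unadjusted p below 0.05 there were 2, H2-Aa and H2-Ab1 (0.36, interval 0.04 to 0.68, adjusted p = 0.199), and DESeq2 called 1. For H2-Eb1 the difference was 0.32 (interval -0.17 to 0.81), an interval that holds both 0 and the value of H2-Ab1. The call for H2-Aa was kept in 2 of 12 fits that left out a library, those without untreated Tespa1+/+ replicate 1 and without treated Tespa1+/+ replicate 2. In the other 10 its adjusted p was 0.0546 to 0.0827 and the estimate 0.89 to 1.07. With the replicate number as a block it was not called either (1.03, adjusted p = 0.0560).

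Of the other class II genes, H2-Ob was lower in all 4 comparisons, in 2 of which the chain genes were called higher. H2-Ob, the beta chain of the restrainer of H2-DM, measured 43.2, 45.3 and 39.3 CPM in untreated Tespa1+/+, 29.1, 24.7 and 26.5 in untreated Tespa1-/-, 26.6, 29.7 and 30.5 in treated Tespa1+/+ and 13.9, 20.2 and 13.4 CPM in treated Tespa1-/- libraries. Both treated Tespa1+/+ and untreated Tespa1-/- LSKs lay below untreated Tespa1+/+, and treated Tespa1-/- LSKs lay below all others. It was lower in Tespa1-/- LSKs before (-0.67 ± 0.10, adjusted p = 0.00909) and after 5-FU (-0.87 ± 0.18, adjusted p = 0.0113), and lower after 5-FU in Tespa1+/+ (-0.56 ± 0.11, adjusted p = 0.0176) and in Tespa1-/- LSKs (-0.77 ± 0.17, adjusted p = 0.0143), all by edgeR. Its interaction was not called (-0.20, adjusted p = 0.685). H2-Oa, its partner chain, was called in none of them (-0.06, -0.36, 0.45 and 0.14 in the same order). The FPKM ratio of H2-Ob to H2-Oa went from 2.898 to 3.56 in untreated Tespa1+/+ to 0.988 to 1.21 in treated Tespa1-/- LSKs, with 1.77 to 2.38 and 1.20 to 1.93 in the groups between. The ratio of H2-DMa to H2-Ob was 2.42 to 3.33 in untreated Tespa1+/+, 3.03 to 4.19 in untreated Tespa1-/-, 2.66 to 3.21 in treated Tespa1+/+ and 3.96 to 6.06 in treated Tespa1-/- LSKs, and the range of untreated Tespa1-/- LSKs overlapped all others.

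The other 14 genes of the pathway, of which 12 were tested, gave 0 higher and 1 lower (H2-Ob) between untreated genotypes, 2 higher and 1 lower between genotypes after 5-FU, 0 higher and 1 lower with 5-FU in Tespa1+/+, and 4 higher and 2 lower with 5-FU in Tespa1-/- LSKs. Over all genes tested, 1.64% were called higher and 3.59% lower between untreated genotypes, and 7.34% and 5.78% after 5-FU. With 5-FU, the shares were 3.77% and 4.18% in Tespa1+/+ and 10.7% and 8.64% in Tespa1-/- LSKs. They apply to the counts of the other lists below as well. Ifi30, the thiol reductase that opens disulfide bonds of antigens in the endosome, was at 9.63 to 11.5 CPM in treated Tespa1+/+ and 17.8 to 25.8 CPM in treated Tespa1-/- LSKs (1.07 ± 0.18, adjusted p = 0.00432). Ctsb, a lysosomal protease, was at 82.8 to 85.8 and 108 to 120 CPM (0.41 ± 0.07, adjusted p = 0.00340). With 5-FU in Tespa1-/- LSKs, Ifi30 (1.64), March1 (1.40, a ligase that marks class II molecules for removal, with a mean of 1.45 CPM) and Ctsd (0.52, a lysosomal protease) rose, as did Ctsb (0.45), while Ctss (-0.31), the protease that trims Cd74, and H2-Ob (-0.77) fell. H2-Eb2, not tested for low counts, had at most 22 counts in a library.

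Of the DNA-binding partners of Ciita, 1 passed a test in 1 comparison. Of 7 (Rfx5, Rfxap, Rfxank, Nfya, Nfyb, Nfyc and Creb1), 0 were called between genotypes before or after 5-FU and 0 with 5-FU in Tespa1+/+ LSKs. Nfyb, an NF-Y subunit, was higher with 5-FU in Tespa1-/- LSKs (0.29 ± 0.09, adjusted p = 0.0477), where 10.7% of all genes tested were called higher. The genes of the interferon gamma arm, which drives Ciita in many cells, split. Irf1 was lower in all 4 comparisons, with log2 fold changes of -0.53, -0.58, -0.54 and -0.59. Jak1 was lower in untreated Tespa1-/- LSKs (-0.23). Ifngr1, a chain of the receptor, was higher after 5-FU in Tespa1+/+ (0.54), higher after 5-FU in Tespa1-/- (0.57) and higher in Tespa1-/- after 5-FU (0.27). In all, 0 of 6 were called higher and 2 lower between untreated genotypes, 1 and 1 after 5-FU, 1 and 1 with 5-FU in Tespa1+/+ and 2 and 1 in Tespa1-/- LSKs.

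Between genotypes, class I genes were called lower in Tespa1-/- LSKs or not called. Of 12, 0 were called higher and 3 lower between genotypes after 5-FU: Nlrc5, the class I counterpart of Ciita (-0.59, adjusted p = 0.000125), the peptide pump subunit Tap1 (-0.34) and the trimming peptidase Erap1 (-0.34). H2-K1 and H2-D1, the class I heavy chains, were not called there. Between untreated genotypes 0 were higher and 1 lower, the light chain B2m (-0.32, adjusted p = 0.0140). With 5-FU, 2 were higher and 1 lower in Tespa1+/+ LSKs, with H2-T23 (0.57) and Tap1 (0.46) higher and B2m (-0.33) lower, and 1 higher and 3 lower in Tespa1-/- LSKs. Of the genes of T cell costimulation, Cd86, the partner signal to class II on antigen-presenting cells, was lower in all 4 comparisons (-1.12, -1.26, -1.18 and -1.33), from 20.5 to 20.98 CPM in untreated Tespa1+/+ to 3.12 to 4.53 CPM in treated Tespa1-/- LSKs. Cd274, the inhibitory ligand PD-L1, was lower in Tespa1-/- after 5-FU (-0.86, adjusted p = 0.00289) and higher with 5-FU in Tespa1+/+ LSKs (0.55). Of 4 costimulation genes tested, 0 were higher and 1 lower between untreated genotypes, 0 and 2 after 5-FU, 1 and 1 with 5-FU in Tespa1+/+ and 0 and 1 in Tespa1-/- LSKs.

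**Figure D3:**
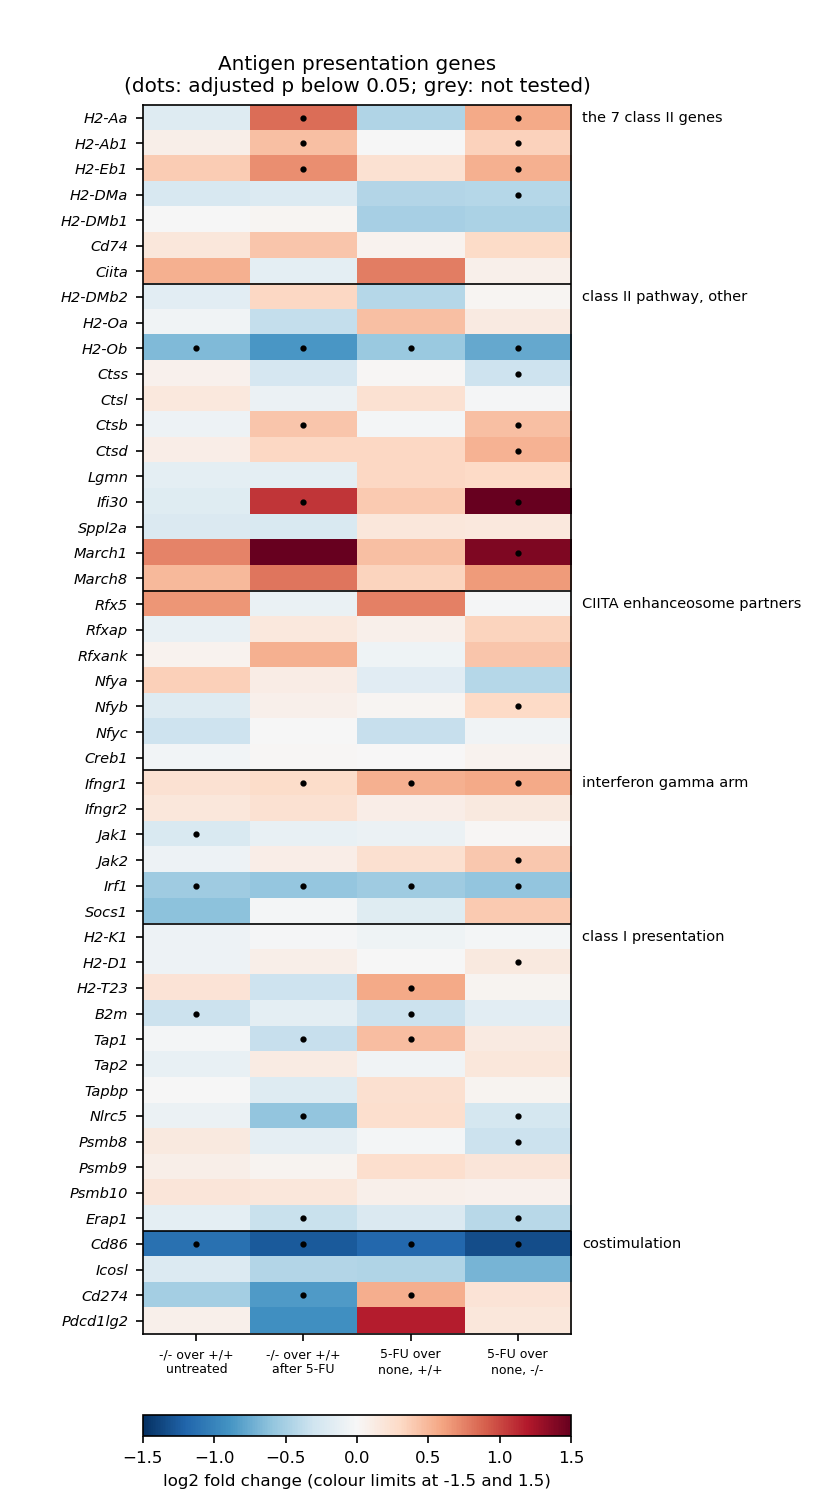
Log2 fold change (color, limits at -1.5 and 1.5) of the class II genes and of related lists in the 4 comparisons; dots mark an adjusted p below 0.05 in edgeR. H2-Aa, H2-Ab1 and H2-Eb1 are red with dots in the comparison of genotypes after 5-FU (0.84, 0.45 and 0.69), next to blue dotted cells of H2-Ob (-0.87), Nlrc5 (-0.59) and Cd86 (-1.26).

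Genes of other cell types moved between the same groups. B cell genes summed to 58.9 to 71.4 CPM in untreated Tespa1+/+, 40.1 to 46.2 in untreated Tespa1-/-, 257 to 277 in treated Tespa1+/+ and 298 to 313 CPM in treated Tespa1-/- libraries. Between untreated genotypes 0 of 7 tested were higher and 3 lower in Tespa1-/- LSKs, Cd79a (-1.24), Pax5 (-1.16) and Ebf1 (-0.71). Of 11, 9 were tested between genotypes after 5-FU and 2 were higher (Cd22 and Vpreb1) and 0 lower, while 7 of 8 tested were higher with 5-FU in Tespa1+/+ and 8 of 9 in Tespa1-/- LSKs. The mature B cell genes Cr2 and Fcer2a had at most 9 and 13 counts in a library and Ms4a1 at most 38.

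Dendritic cell genes summed to 19.5 to 22.7 CPM in untreated Tespa1+/+, 18.1 to 24.4 in untreated Tespa1-/-, 13.5 to 16.7 in treated Tespa1+/+ and 19.9 to 25.6 CPM in treated Tespa1-/- LSKs, and between genotypes after 5-FU 1 of 7 tested, Siglech, was called higher. Siglech marks plasmacytoid cells and was at 0 to 0.154 against 1.70 to 3.33 CPM. Zbtb46, a factor of classical dendritic cells, was at 1.78 to 3.85 against 5.30 to 6.19 CPM, without overlap (1.08, adjusted p = 0.0628), and 5 of the 7 log2 fold changes were positive. Cd209a and Batf3, with at most 4 and 12 counts in any library, were not tested. Monocyte and macrophage genes summed to 227 to 251, 261 to 280, 279 to 302 and 402 to 424 CPM in the same order of groups. Between untreated genotypes, Csf1r (0.48) and Ly6c2 (0.55) were called higher in Tespa1-/- LSKs and 0 lower, of 11 tested. Lyz2 was higher (1.58) and Ccr2 lower (-0.26) of 12 tested between genotypes after 5-FU, and 10 of the 12 log2 fold changes were positive. The macrophage genes C1qa (0 to 0.655 against 1.78 to 2.96 CPM, adjusted p = 0.0906) and Adgre1 (0.330 to 1.62 against 2.08 to 3.25 CPM, adjusted p = 0.105) did not overlap between the treated genotypes either. Neutrophil genes, such as S100a9 and Ngp, stood at 0.498 to 6.75 CPM in all in the other 9 libraries and at 924 to 950 CPM in treated Tespa1-/- LSKs, with 7 of 8 tested called higher than in treated Tespa1+/+. T cell genes summed to 22.4 to 26.8 CPM in untreated Tespa1+/+, 18.2 to 24.5 in untreated Tespa1-/-, 15.4 to 21.4 in treated Tespa1+/+ and 22.8 to 28.6 CPM in treated Tespa1-/- LSKs. Between genotypes after 5-FU, 2 of 7 tested were called higher and 0 lower. LSK markers summed to 1473 to 1541 CPM in untreated Tespa1+/+, 1240.2 to 1276 in untreated Tespa1-/-, 1148 to 1168 in treated Tespa1+/+ and 718 to 757 CPM in treated Tespa1-/- LSKs. Of 7, 4 were lower in Tespa1-/- LSKs after 5-FU and 0 higher: Ly6a (-1.24), Flt3 (-0.89), Cd34 (-0.78) and Kit (-0.45). Between untreated genotypes 2 were lower, Flt3 (-0.30) and Cd34 (-0.27), and 0 higher. The part of these genes in the class II values was not tested.

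**Figure D4:**
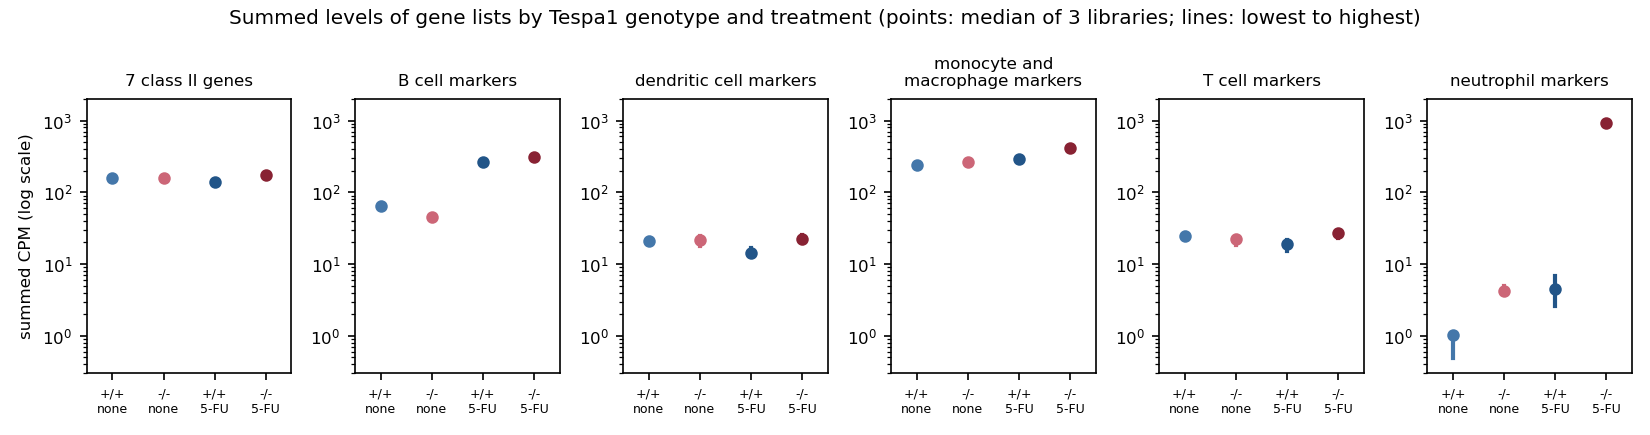
Summed CPM of the 7 class II genes and of marker lists of other cell types by Tespa1 genotype and treatment, on a log axis; points are the median of 3 libraries and lines run from the lowest to the highest. The class II sum stays between 134 and 183 CPM, while neutrophil markers stand at 924 to 950 CPM in treated Tespa1-/- LSKs and at 6.75 CPM or less elsewhere.

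The 7 genes differed in how they followed each other. Over the 12 libraries, Pearson's r of log2(CPM + 1) with the mean of the other 6 genes was 0.70 for H2-Aa, 0.55 for H2-Ab1, 0.45 for H2-Eb1 and 0.21 for Cd74, and -0.19 for H2-DMb1, -0.30 for Ciita and -0.59 for H2-DMa. These are descriptions, since the libraries of a group share genotype and treatment. Of 14927 other genes with a mean of at least 1 CPM, the 5 most like the mean of the 7 were F630028O10Rik (r = 0.956), Prr11 (0.940), Mfsd12 (0.937), Uqcrfs1 (0.933) and Ftsj1 (0.918), and their mean level was highest in treated Tespa1-/- LSKs. F630028O10Rik, for example, averaged 12.6, 16.0, 10.0 and 20.7 CPM in the same order of groups.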

How the data were processed

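RNA-seq libraries of LSKs from Tespa1+/+ and Tespa1-/- mice, untreated or at day 9 after 5-FU, were read from the table the authors deposited, with 3 libraries in each of 4 groups taken from the labels. The deposited table holds raw counts per gene, without normalization, and FPKM values that the authors derived from the same counts and a length per gene. FPKM was used only to compare levels between genes. Per the labels, a stranded kit for polyadenylated RNA and paired-end reads were used, and the submitters' processing notes name CASAVA 1.8, HISAT2, StringTie, edgeR and GRCm38. The use of strand in counting is not given in the sources used here. Symbols such as 1-Mar had been altered in the table, and 2 genes (March1 and March8) were matched by identifier.

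The deposited counts, 22118154 to 28275079 per library, went into edgeR 4.0.16 under R 4.3.3 (filterByExpr with a minimum count of 10, TMM, glmQLFit and glmQLFTest) on the 6 libraries of each comparison, and on all 12 for the interaction. Benjamini-Hochberg adjustment covered the whole table of tested genes, and the threshold was 0.05. Errors are standard errors of the log2 fold change. Alternatives were DESeq2 1.42.0, RLE factors, library totals, no filter, a floor of 10 counts per gene in each library, a joint fit of the 12 libraries, a fold change above 1.5, the replicate number as a block and each library left out. Replicates differed by more than sampling noise, and no library was dropped. Levels of lists are sums of CPM.

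Members and gene lists were chosen with earlier results of these data known. Some genes of the related and marker lists are not reported here and were left out of the counts and sums of those lists, but stayed in the fits. Besides the 7 genes, the text names up to 3 called genes per list and comparison with the largest change and a mean of at least 1 CPM, and the 5 genes most like the 7. Not every called gene of these lists is named. H2-Oa, H2-Eb2, H2-Ea-ps, Jak1, Ctsd, Ctss, March1, Zbtb46 and other markers that were not called were named after their values were seen where they fall outside that rule. Annotation came from GENCODE M21 and promoters from RefSeq. Figures were drawn with matplotlib 3.10.9 in Python 3.11.15.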

Additional observations from a re-analysis of the deposited data

Results flagged for a closer look

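The response to 5-FU differed between genotypes, by the interaction test over the 12 libraries, for 4 genes of the class II and related lists. The difference, as the log2 change in Tespa1-/- less that in Tespa1+/+ LSKs, was 1.03 for H2-Aa (adjusted p = 0.0304), 0.49 for Ctsb (0.00430) and 1.25 for Ifi30 (0.0445). It was -0.50 for Nlrc5 (0.0137), all by edgeR. Over all 18696 genes tested, 3.02% were called higher and 1.99% lower. Marker lists of cell types are left out here, though some of their genes were called too. H2-Aa lost the call in 10 of 12 fits that left out a library and with the replicate number as a block (adjusted p = 0.0560). Whether a single library stood apart was not tested, since each group had 3.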

How the results depend on the processing

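Counts of members called under the alternatives moved as follows. After 5-FU, the count of genes higher in Tespa1-/- LSKs was 1 to 2 when a library was left out, 2 (without H2-Ab1) with a fold change above 1.5 and 3 under the others. In Tespa1+/+ LSKs with 5-FU, the count lower was 1 by DESeq2 and with all 12 libraries in one fit, against 0. In Tespa1-/- LSKs with 5-FU, the count higher was 1 with the replicate block, 2 without the filter on low counts (H2-Eb1 not called, adjusted p = 0.0596), 0 with a fold change above 1.5 (with an adjusted or an unadjusted p) and 0 to 2 with a library left out. The count lower there was 0 without the filter on low counts, 0 with a fold change above 1.5 and 0 to 1 with a library left out. For the interaction, the count higher was 0 with the replicate block (H2-Aa 1.03, adjusted p = 0.0560) and 0 to 1 with a library left out. The replicate numbers share only a number: of 18 pairs of same-numbered libraries, 0 had a correlation of their deviations above 0.1 (-0.094 to 0.053), so the block has no basis in the design. With the replicate block H2-Ab1 and H2-Eb1 lost their calls in Tespa1-/- LSKs with 5-FU (adjusted p of 0.0520 and 0.0822), and no call of a class II gene other than these and H2-Aa changed. No gene turned its called direction under any alternative. Leaving out a library also lowers the number of samples. Without the filter the median log2 fold change of all genes shifted to 0.22 between untreated genotypes, -0.38 with 5-FU in Tespa1-/- LSKs and -0.39 in the interaction. Ciita had 48 to 167 counts a library, the fewest of the 7 genes.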
